A study of Rattus norvegicus with 12 samples.

Results

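Hepcidin, the peptide that liver cells release to limit iron in blood, and 9 genes around it are described here in rat hepatocytes treated with interferon alpha. The genes are Hamp (hepcidin), Tf, Tfrc, Tfr2, Slc40a1, Hfe, Bmpr2, Id1, Smad6 and Smad7, and every probe set that the platform annotation pairs with one of them was taken. That gave 20 of the 31042 probe sets tested. Of these, 18 carry 1 gene symbol, and the other 2 are annotated to both Srprb and Tf, so that neither gene can be named from them and Tf itself has no probe set of its own.

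Primary hepatocytes of Wistar rats were freed with collagenase, purified over Percoll and put in culture. From the day after, they were kept with 250 U/ml rat interferon alpha for 6 h, without it for 6 h, with it for 3 h, or without it for 3 h. Each of these 4 groups holds 3 Affymetrix arrays, 12 in all, which the labels call biological replicates. Nothing in the labels says whether they came from separate animals, so p-values measure only the spread between these samples. All values are log2 expression levels per probe set.

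Hepcidin binds ferroportin, the product of Slc40a1 and the only known iron exporter of vertebrate cells, and causes its removal from the cell surface. In hepatocytes the hepcidin gene is switched on chiefly by bone morphogenetic proteins (BMPs). Their receptor complexes, which can hold Bmpr2, phosphorylate Smad proteins that act in the nucleus. Id1, Smad6 and Smad7 are direct targets of the same pathway, and Smad6 and Smad7 inhibit it in turn. Inflammation adds a separate input through interleukin 6 and Stat3.

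The promoter of rat Hamp is shown because both inputs are known, from the human gene, to act close to the start of transcription. The stretch below is the 250 bases before the annotated start, from RefSeq, build GRCr8, minus strand, chr1:95300272-95300521, read 5′ to 3′ along the gene. Capitals mark GGCGCC, the core letters of the BMP-responsive element, at position -129, and a match to TTCNNNGAA, the palindrome bound by Stat proteins, at position -117. The base just before the start is -1.
Hamp: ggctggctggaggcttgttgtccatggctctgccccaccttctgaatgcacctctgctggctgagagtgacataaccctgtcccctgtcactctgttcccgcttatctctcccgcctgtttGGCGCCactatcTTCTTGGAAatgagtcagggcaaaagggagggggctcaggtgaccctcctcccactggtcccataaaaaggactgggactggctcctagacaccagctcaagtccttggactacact

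Promoters were found in the same RefSeq table for 8 of the 10 genes. Searched on both strands, GGCGCC was present in 3 of these 8 windows (Hamp, Tfrc at position -118, Smad7 at positions -96 and -36), against 8.69% of all 33469 rat promoters of that length. TTCNNNGAA was present in 1 of the 8 (Hamp), against 7.67% of all promoters. The interferon-stimulated response element, searched as GAAA and GAAA with any 2 bases between them, was present in 0 of the 8, against 3.41% of all promoters. It was present in 4 of 5 promoters of interferon-response genes used as a check of the treatment (Cxcl10, Ifit3, Irf7 and Rsad2, not Mx1). A stretch of 40 bases around it is shown for 2 of these, for contrast with Hamp, with the element in capitals as it reads on the opposite strand. The Ifit3 stretch lies at chr1:241527267-241527306 (plus strand) and the Rsad2 stretch at chr6:48788243-48788282 (minus strand). A match is a description of letters and not of binding.
Ifit3: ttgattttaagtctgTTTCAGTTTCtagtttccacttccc
Rsad2: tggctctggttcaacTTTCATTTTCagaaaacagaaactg

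The arrays were alike in their overall distribution, with medians between 5.16 and 5.21, which the processing by RMA sets and which is no check of quality. Correlations between any 2 arrays were 0.979 to 0.997. The 7 hepatocyte markers examined (Alb and Ttr among them) averaged between 13.28 and 13.62 on every array. Arrays with the same replicate number deviated together from their group means, so each comparison is given both without and with the replicate number as a block. As a check of the treatment, 7 of 7 measured genes of an interferon-response list rose in treated cells at 6 h, by 2.21 to 4.49. With the block 7 of 7 were called too (0.387% of all probe sets were called without the block and 1.1% with it). The list was chosen with earlier results of these data known, so it is no independent test. At 3 h 1 of 7 was called (Cxcl10, by 4.98) and 3 of 7 with the block, where 0.00644% and 0.0966% of all probe sets were. All 7 had an unadjusted p under 0.05 at 3 h (2.95% of all without the block), with changes of 0.98 to 4.98 (median 1.91). Ifit3 averaged 12.94 ± 0.34 in treated cells at 6 h and 8.45 ± 0.67 in controls at 6 h (SD, n = 3 each), a change of 4.49 ± 0.50 (SE, limma adjusted p = 0.00325). The changes of Cxcl10 (4.36), Mx1 (4.33) and Rsad2 (3.14) at 6 h were called too.

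Neither Hamp nor any other of the 20 probe sets passed the test after interferon alpha at either time. At 6 h, 0 of 20 were called by limma at a Benjamini-Hochberg adjusted p under 0.05, where 0.387% of all probe sets were called, and 0 of 20 had an unadjusted p under 0.05 (3.69% of all). With the replicate block 0 of 20 were called as well (1.1% of all), and 0 of 20 had an unadjusted p under 0.05 (8.18% of all). At 3 h the count was 0 of 20 without the block (0.00644% of all called) and 0 of 20 with it (0.0966%), and 0 had an unadjusted p under 0.05 in either fit (2.95% of all without the block and 6.75% with it). Averaged over both times, 0 of 20 were called without the block (0.435% of all) and 0 of 20 with it (1.1%), with 0 (4.48% of all) and 1 (10.8% of all) at an unadjusted p under 0.05. In 0 of 20 probe sets did the 3 treated arrays lie apart from the 3 controls, at 6 h (7.75% of all probe sets did) or at 3 h (7.5%). The median change of the 20 was -0.05 at 6 h, against -0.02 over all probe sets, and -0.04 at 3 h, against -0.01.

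**Figure D1:**
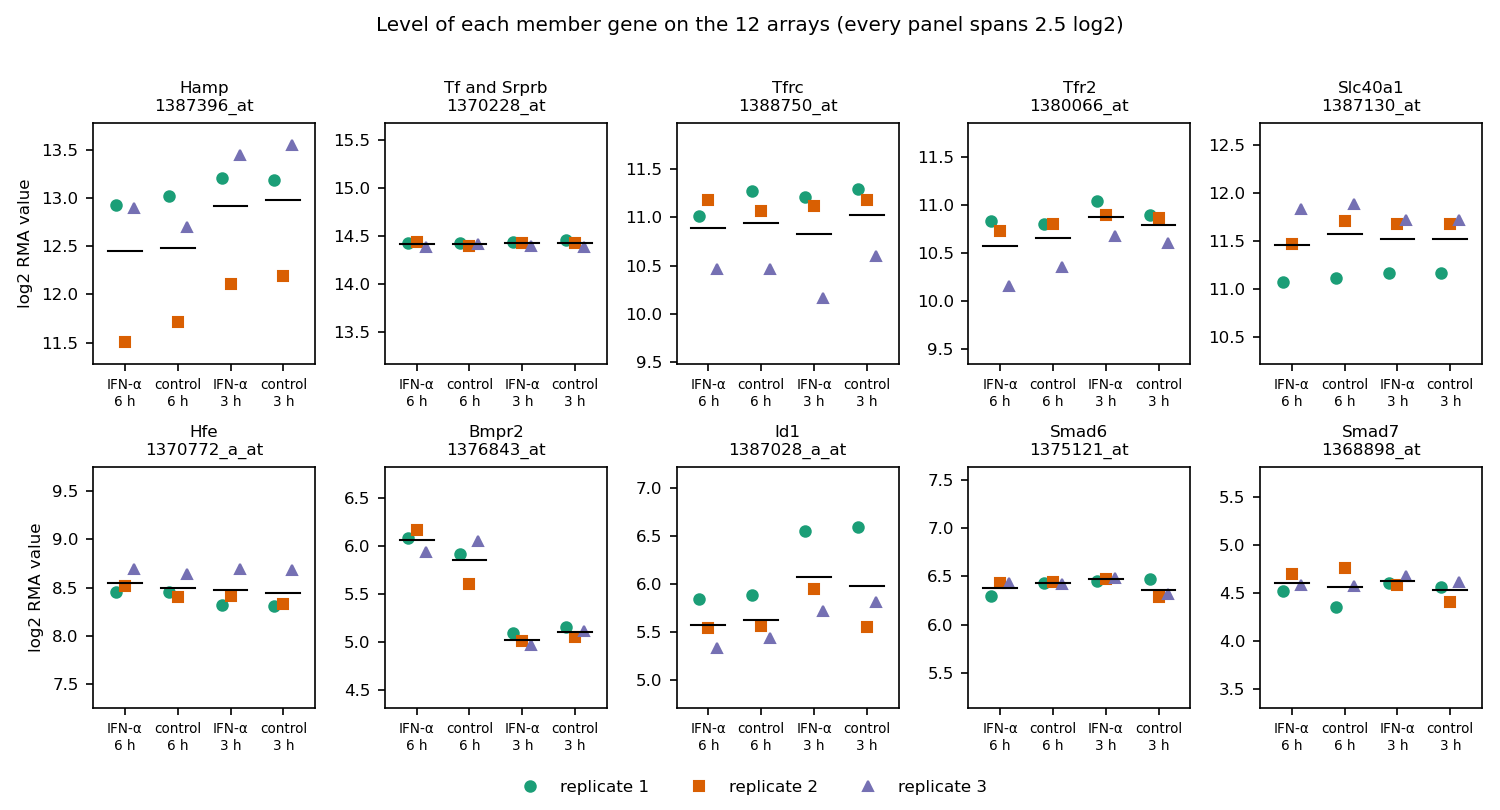
Level of each gene on its brightest probe set (log2 RMA value, vertical axis) in the 4 groups, with 1 point per array, the replicate number as colour and shape, and the group mean as a bar. Within a time the treated and control arrays overlap in every panel, while Bmpr2 lies higher at 6 h than at 3 h and replicate 2 of Hamp lies lowest in each group.

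Hamp was measured by 1 probe set, 1387396_at. Its level was 12.93, 11.51 and 12.90 in interferon-treated cells at 6 h (replicates 1 to 3), against 13.02, 11.71 and 12.70 in controls at 6 h. It was 13.21, 12.11 and 13.45 in treated cells at 3 h, against 13.19, 12.19 and 13.55 in controls at 3 h. Treated and control arrays overlapped at both times, and within each replicate number the treated array was above its control in 1 of 3 at 6 h and in 1 of 3 at 3 h. The difference was -0.03 at 6 h (95% interval -1.16 to 1.11) and -0.06 at 3 h (-1.19 to 1.08). With the replicate block the intervals narrowed to -0.28 to 0.23 at 6 h and -0.31 to 0.20 at 3 h. On the linear scale the blocked interval at 6 h spans 0.822-fold to 1.17-fold. A p that misses the threshold does not show equal levels, and any difference within these intervals remains possible. RNA of all cells in a culture was measured together, so fewer cells of a type and less RNA per cell cannot be told apart.

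The receptor gene Bmpr2 encodes a type II receptor that BMPs bind on hepatocytes and other cells. On its brighter probe set, 1376843_at, the level was 6.08, 6.16 and 5.93 in treated cells at 6 h, against 5.91, 5.60 and 6.05 in controls at 6 h. The groups overlapped, and the difference of 0.21 did not pass (95% interval -0.04 to 0.45, limma adjusted p = 1.0, and 0.664 with the block). At 3 h it was 5.09, 5.01 and 4.97 in treated cells, against 5.16, 5.05 and 5.11 in controls, a difference of -0.08 (-0.33 to 0.16). Its other probe set, 1394667_at, gave 0.01 at 6 h and -0.06 at 3 h.

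The transcripts that BMP signalling is known to raise showed no called change either. Id1, an inhibitor of basic helix-loop-helix factors and a standard readout of Smad1 and Smad5 activity, had 5.84, 5.54 and 5.33 in treated cells at 6 h, against 5.88, 5.56 and 5.44 in controls. Its difference was -0.05 at 6 h (blocked 95% interval -0.33 to 0.23) and 0.09 at 3 h (-0.19 to 0.37). The inhibitory Smad genes had 7 probe sets between them, 4 for Smad6 and 3 for Smad7, and their changes lay between -0.18 (Smad7, 1368896_at) and 0.04 (Smad7, 1368898_at) at 6 h. At 3 h they lay between -0.09 (Smad7, 1368897_at) and 0.11 (Smad6, 1375121_at). The brightest probe set of Smad6 averaged 6.38 ± 0.07 in treated cells at 6 h and 6.43 ± 0.01 in controls (SD, n = 3 each). The brightest of Smad7 averaged 4.60 ± 0.09 in treated cells and 4.56 ± 0.21 in controls. Probe sets of 1 gene thus differed in sign for both genes, within intervals that all held 0. Several of them were dim. By mean level, 1394025_at and 1385928_at of Smad6 lay at percentiles 2.39 and 8.19 of all probe sets. For Smad7, 1368897_at and 1368896_at lay at percentiles 12.8 and 26.1, and its brightest at 40.9. A small change on such dim probe sets says little about the transcript.

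Among the genes that move iron, Tfrc encodes transferrin receptor 1, which takes up transferrin-bound iron and has 2 probe sets here. On 1388750_at the level was 11.02, 11.18 and 10.46 in treated cells at 6 h, against 11.28, 11.07 and 10.46 in controls. At 3 h it was 11.21, 11.12 and 10.16 in treated cells, against 11.30, 11.18 and 10.60 in controls. All 3 treated arrays lay below their own control at 3 h on this probe set, with differences of -0.09, -0.06 and -0.44, and 1 of 3 did at 6 h. On 1371113_a_at, 2 of 3 did at 3 h. How many of all probe sets share such directions was not counted, so nothing is read from them. The change at 3 h was -0.20 (blocked 95% interval -0.42 to 0.02, limma adjusted p = 0.766 with the block), and that of 1371113_a_at was -0.15 (-0.37 to 0.07).

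Slc40a1, the exporter gene, had 3 probe sets. On the brightest, 1387130_at, treated cells at 6 h had 11.07, 11.47 and 11.83, against 11.12, 11.71 and 11.88 in controls. At 3 h the treated arrays had 11.17, 11.68 and 11.72, and the controls had the same 3 values to 2 decimals. The change was -0.12 at 6 h (blocked 95% interval -0.29 to 0.06) and 0.00 at 3 h (-0.17 to 0.18). The other probe sets gave -0.10 and -0.10 at 6 h, and -0.01 (1390412_at) and -0.21 (1376972_at) at 3 h.

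Tfr2 encodes transferrin receptor 2, and Hfe the membrane protein mutated in the common form of hereditary haemochromatosis, and both help hepatocytes sense transferrin-bound iron. Tfr2 averaged 10.57 ± 0.36 in treated cells at 6 h and 10.66 ± 0.25 in controls, and 10.87 ± 0.18 in treated cells at 3 h and 10.79 ± 0.17 in controls (SD, n = 3 each). Its changes were -0.08 at 6 h (blocked 95% interval -0.27 to 0.10) and 0.08 at 3 h (-0.10 to 0.27). Hfe averaged 8.55 ± 0.12 in treated cells at 6 h and 8.50 ± 0.13 in controls, a difference of 0.06 (-0.10 to 0.21), and its difference at 3 h was 0.03 (-0.12 to 0.19). Neither gene had groups that stood apart.

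The 2 probe sets annotated to both Srprb and Tf were not called in either comparison. On 1370228_at all 12 arrays lay between 14.38 and 14.46, where the highest value on an array was 14.61 to 14.71. On 1391323_at the level was 8.40, 6.97 and 7.52 in treated cells at 6 h, against 8.92, 7.82 and 7.77 in controls at 6 h. At 3 h it was 8.11, 6.59 and 6.39 in treated cells, against 7.64, 7.70 and 7.09 in controls. Treated arrays were below their own control in 5 of 6 pairs, a trait not counted over all probe sets and not read as a result. The change averaged over both times, -0.49, had an unadjusted p of 0.0185 with the block and an adjusted p of 0.352, so it did not pass.

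**Figure D2:**
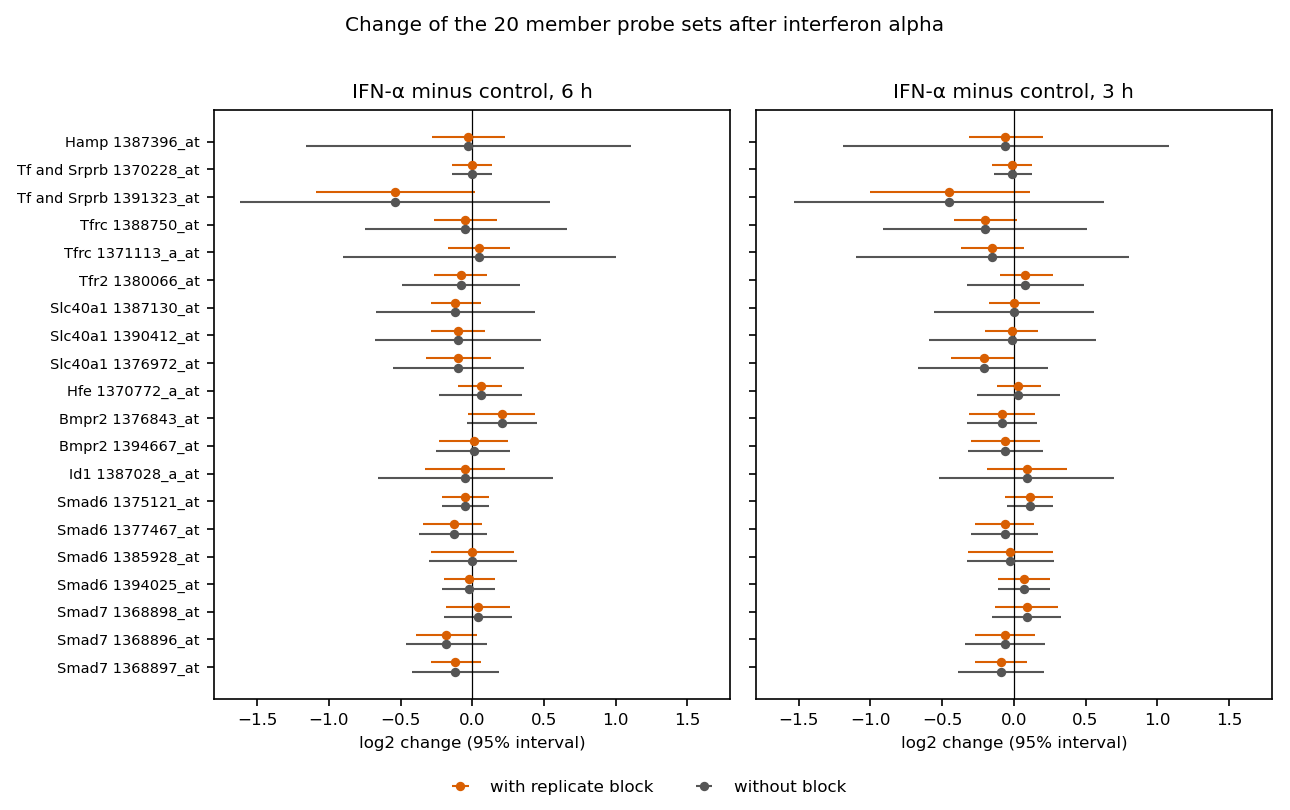
Change of the 20 probe sets after interferon alpha (log2, interferon alpha minus control, horizontal axis) at 6 h on the left and at 3 h on the right, with 95% intervals from limma. Every interval holds 0 in both fits, and over the 18 probe sets of 1 gene those with the block reach from -0.39 to 0.44 at 6 h and from -0.44 to 0.37 at 3 h.

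The difference between the effects at 6 h and at 3 h was called for 0 of 20 probe sets by limma and for 0 of 20 with the block, where 0.0% of all probe sets were called in either fit, and 0 of 20 had an unadjusted p under 0.05 in either (2.17% of all without the block and 4.72% with it). The largest difference among the members was that of Bmpr2, 0.29 (95% interval -0.06 to 0.63).

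Other genes of the same pathways were taken from lists that do not hold the 10 genes. Of 35 measured genes of BMP and Smad signalling, 0 were called at 6 h by limma and 0 with the block (0.387% and 1.1% of all probe sets). Of the 35, 3 and 4 had an unadjusted p under 0.05 (3.69% and 8.18% of all). The median change was -0.02, as over all probe sets. The brightest, Fkbp1a, an immunophilin that binds type I receptors of this family, had a difference of -0.08, and Id4, a further Id gene, one of -0.16. One gene of this list, Id3, was singled out after its values were seen. It had 7.93, 7.56 and 7.35 in treated cells at 6 h, against 7.34, 5.67 and 6.28 in controls, and 7.45, 7.27 and 7.37 in treated cells at 3 h, against 7.02, 5.37 and 6.68 in controls. The treated arrays lay above all controls of the same time at both times, as 7.75% of all probe sets stood apart at 6 h and 7.5% at 3 h. The change was 1.18 ± 0.44 at 6 h and 1.01 ± 0.44 at 3 h (SE), with blocked adjusted p of 0.103 and 0.456. Averaged over both times, Id3 rose by 1.10 with the block (limma adjusted p = 0.0204), and the adjusted p was 0.487 without it.

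Of 23 measured genes of iron handling, 0 were called at 6 h by limma and 1 with the block (0.387% and 1.1% of all probe sets). Without and with the block, 1 and 2 of the 23 had an unadjusted p under 0.05 (3.69% and 8.18% of all). Haptoglobin (Hp) and hemopexin (Hpx), the brightest, which bind free haemoglobin and haem in plasma, had differences at 6 h that round to 0.00, with blocked 95% intervals of -0.15 to 0.14 and -0.15 to 0.15. The gene called with the block was Slc25a28, mitoferrin 2, which carries iron into mitochondria. It had 8.95, 9.37 and 9.43 in treated cells at 6 h, against 8.45, 8.29 and 8.69 in controls. Its rise of 0.77, or 1.71-fold, had a blocked adjusted p of 0.00806 and an adjusted p of 0.514 without the block. At 3 h the change was 0.31 and did not pass (blocked adjusted p = 0.69).

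Of 14 measured genes of the interleukin 6 and Stat3 arm, 0 were called at 6 h by limma and 0 with the block (0.387% and 1.1% of all probe sets). Of the 14, 1 and 4 had an unadjusted p under 0.05 (3.69% and 8.18% of all). Averaged over both times, 0 were called with the block on the brightest probe set, and 1 gene was called on another probe set (1.1% of all probe sets were called). The acute-phase genes Fgb (fibrinogen beta chain) and Crp (C-reactive protein) had differences of -0.03 (blocked 95% interval -0.17 to 0.12) and -0.06 (-0.23 to 0.11). At 3 h, 0 genes of each of these 3 lists were called in either fit.

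Hamp, Tfrc, Slc40a1 and several other members varied with the replicate number. Hamp, Tfrc, Tfr2 and Slc40a1 each had the same lowest replicate in all 4 groups, as did 1368897_at of Smad7. How many of all probe sets share that trait was not counted, so it is not read as particular to these genes. Testing the replicate terms of the blocked fit, 11 of 20 probe sets were called, where 29.9% of all probe sets were. Hamp was lowest in replicate 2 in all 4 groups, and its mean deviations from the group means were 0.38, -0.83 and 0.44 for replicates 1 to 3, a span of 2.41-fold (F-test in the blocked limma fit, adjusted p = 4.31e-06). Both probe sets of Tfrc were lowest in replicate 3 in all 4 groups, with spans of 1.72-fold and 2.06-fold, and Tfr2 was too, with 1.36-fold. All 3 probe sets of Slc40a1 were lowest in replicate 1 in all 4 groups, with spans of 1.58-fold, 1.62-fold and 1.42-fold. Id1 was highest in replicate 1 (1.56-fold), and Hfe was highest in replicate 3 (1.22-fold). The order of the replicates therefore differed from gene to gene. Smad7 was called on 1368897_at, lowest in replicate 2 (1.24-fold, F-test in the blocked limma fit, adjusted p = 0.0132), and not on its other probe sets. Both probe sets of Bmpr2 and all 4 of Smad6 were not called, with spans up to 1.10-fold.

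**Figure D3:**
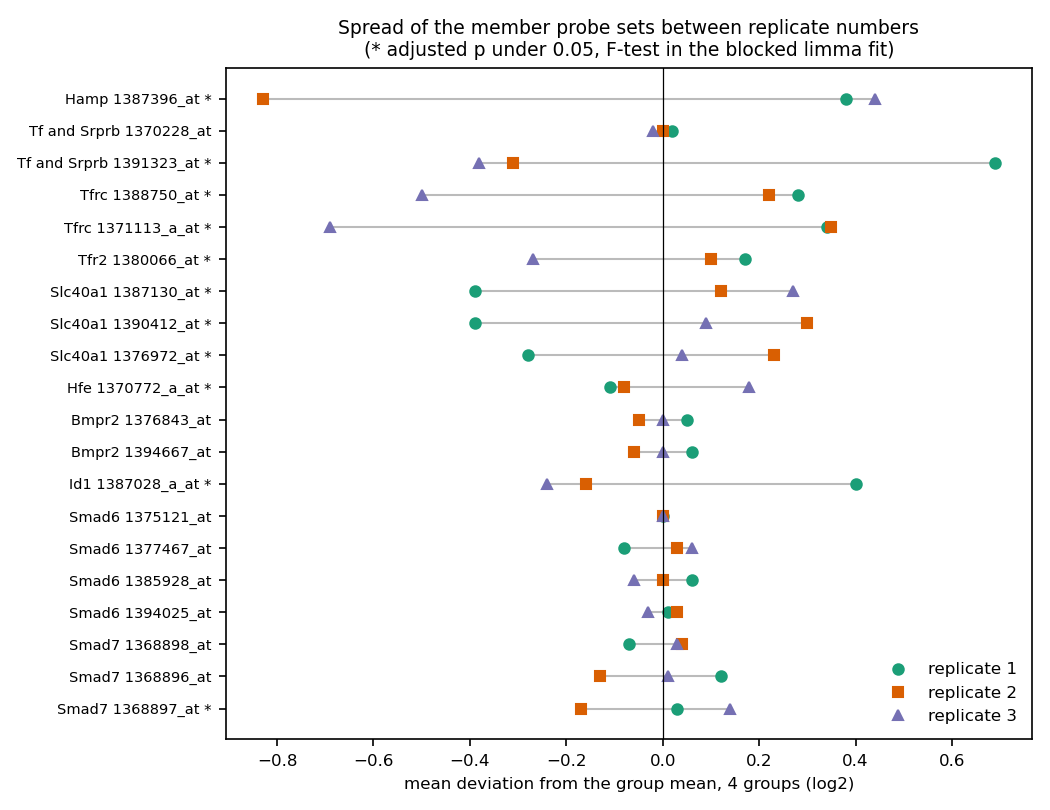
Mean deviation of each replicate number from the group means over the 4 groups (log2, horizontal axis) for the 20 probe sets, with an asterisk at an adjusted p under 0.05. Hamp in replicate 2 (-0.83) and 1371113_a_at of Tfrc in replicate 3 (-0.69) lie furthest below their group means.

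Kupffer cell and macrophage markers also differed between the replicate numbers. The 7 measured Kupffer cell and macrophage markers of 9 listed averaged 6.64, 5.58 and 5.95 in replicates 1 to 3, and 6 of the 7 were called in the same test. Cd5l, a macrophage protein, had 7.50, 4.78 and 5.30 in treated cells at 6 h. The mean of these markers ran from 5.64 to 6.67 in treated cells at 6 h and from 5.53 to 6.65 in controls at 6 h, and from 5.61 to 6.54 in treated cells at 3 h and from 5.53 to 6.72 in controls at 3 h. Of these markers 2 (Cd163 and Adgre1) averaged below the lower quartile of the arrays, 3.89. Over replicates 1 to 3, endothelial markers averaged 4.96, 4.41 and 4.53 (3 of 6 called), and stellate cell markers 4.62, 4.60 and 4.38 (2 of 7). Cholangiocyte markers averaged 6.07, 6.33 and 6.27 (1 of 3), and erythroid markers 5.56, 5.20 and 5.22 (1 of 3). Hepatocyte markers averaged 13.47, 13.60 and 13.34 (3 of 7). In the same test 29.9% of all probe sets were called, and nothing is read from the counts of lists near that share. The part of other cells in the replicate spread of Hamp and the other members was not tested.

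At 6 h relative to 3 h of culture, the receptor gene Bmpr2 rose in treated and in control cells on its brighter probe set, and not on the other. Those calls depended on which arrays were fitted, more so in controls. Hamp fell in treated and in control cells when the replicate number was a block, and did not pass without it or without replicate 2 or 3. Without the block, 1 of 20 probe sets was called in treated cells at 6 h relative to treated cells at 3 h (0.387% of all probe sets), and 1 of 20 in controls (0.19%). With the block the counts were 3 of 20 in treated cells (9.68% of all) and 2 of 20 in controls (8.15%). The change in treated cells was chosen as a comparison after the data had been seen.

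Bmpr2 on 1376843_at rose by 1.04 ± 0.11 in treated cells, or 2.05-fold (SE, limma adjusted p = 0.00783, and 0.000618 with the block), from the values given above. In controls it rose by 0.75 ± 0.11, or 1.68-fold (adjusted p = 0.0365, and 0.0029 with the block). The 3 arrays at 6 h lay above the 3 at 3 h in treated cells, as 14.5% of all probe sets did in one direction or the other, and in controls, as 14.1% did. The rise within replicates 1 to 3 was 0.99, 1.15 and 0.96 in treated cells and 0.75, 0.55 and 0.94 in controls. The call in controls was lost when any 1 of 11 of the 12 arrays was left out (adjusted p 0.051 to 0.149), when only the control arrays were fitted (0.308) and with an intensity trend (0.0718). It was kept without replicate 2 of the 6 h controls (0.0264). The call in treated cells was lost without replicate 1 at 3 h (0.0602) or replicate 2 at 6 h (0.0571), and with only the treated arrays (0.144). The other probe set of the gene, 1394667_at, did not pass, with 0.06 in treated cells and -0.01 in controls. Endothelium is known for high Bmpr2. The mean of the endothelial markers ran from 4.35 to 4.81 in treated cells at 6 h and from 4.47 to 4.95 at 3 h. In controls it ran from 4.42 to 5.04 at 6 h and from 4.41 to 5.04 at 3 h. The median change of the 6 measured markers between the times was -0.21 in treated cells and 0.02 in controls, with 0 called in either fit. With the block, 4 of the 6 had an unadjusted limma p under 0.05 in treated cells and 2 in controls. Without it, 1 did in each. The share of all probe sets under that limit was not counted for these comparisons. The part of endothelial cells in the change of Bmpr2 was not tested.

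**Figure D4:**
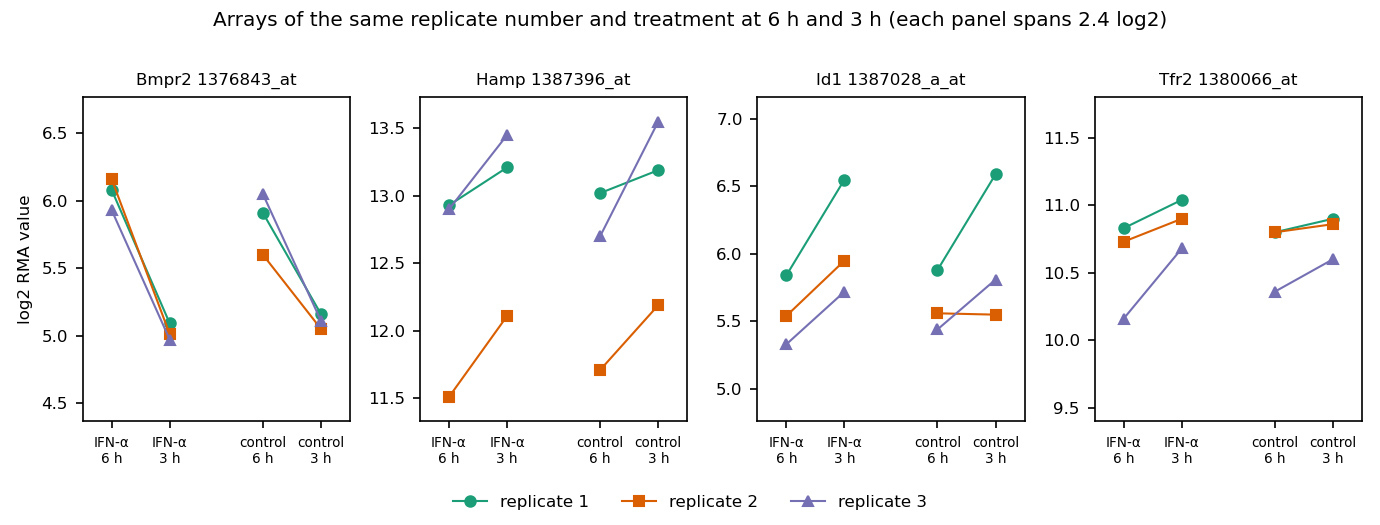
Level of 4 probe sets (log2 RMA value, vertical axis) at 6 h and at 3 h, with lines joining arrays of the same replicate number and treatment. Bmpr2 is higher at 6 h on all 6 lines, Hamp and Tfr2 are lower at 6 h on all 6, and Id1 is lower on 5 of 6.

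Hamp was lower at 6 h than at 3 h in all 6 pairs of arrays with the same replicate number and treatment, as were 10.9% of all probe sets. The changes within replicates 1 to 3 were -0.28, -0.59 and -0.54 in treated cells and -0.18, -0.48 and -0.85 in controls. With the block Hamp fell by 0.47 in treated cells, to 0.721-fold (95% interval 0.604 to 0.860, limma adjusted p = 0.0268), and by 0.50 in controls, to 0.706-fold (0.591 to 0.842, adjusted p = 0.0242). Without the block neither change passed (adjusted p = 0.872 in treated cells and 0.832 in controls). In the blocked fit both calls were kept without replicate 1 (adjusted p = 0.0348 in treated cells and 0.0355 in controls). Both were lost without replicate 2 (0.23 in treated cells and 0.141 in controls) and without replicate 3 (0.111 in treated cells and 0.218 in controls), with differences of -0.41 and -0.44 in treated cells and of -0.51 and -0.33 in controls. From low to high, the mean level of Hamp was 12.45 ± 0.81 in treated cells at 6 h, 12.48 ± 0.68 in controls at 6 h, 12.92 ± 0.71 in treated cells at 3 h and 12.98 ± 0.71 in controls at 3 h (SD, n = 3 each). No neighbours in that order differed beyond these SDs.

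Id1 had 6.55, 5.95 and 5.72 in treated cells at 3 h and 6.59, 5.55 and 5.81 in controls at 3 h, beside the 6 h values given above. With the block it fell by 0.50 in treated cells at 6 h relative to 3 h (limma adjusted p = 0.0321, and 0.612 without the block), and its difference of -0.36 in controls did not pass (0.124 with the block). The call in treated cells was lost when replicate 1, 2 or 3 was left out of the blocked fit (adjusted p = 0.135, 0.0659 and 0.151). Whether these changes differ was tested as the difference of the interferon effects, -0.14 (blocked 95% interval -0.54 to 0.26). Tfr2 was lower at 6 h in all 6 pairs, with mean differences of -0.30 in treated cells (blocked adjusted p = 0.0503) and -0.13 in controls (0.423), and did not pass. On 1391323_at, annotated to both Srprb and Tf, 6 h was above 3 h in all 6 pairs, which 9.51% of all probe sets share, and the changes of 0.60 in treated cells and 0.69 in controls did not pass (blocked adjusted p = 0.185 and 0.129). Tfrc, Slc40a1, Hfe, Smad6 and Smad7 had no called change between the times in either fit.

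In the lists, 0 genes were called between the times without the block on their brightest probe set. With it, 6 of 35 genes of BMP and Smad signalling rose and 2 fell in treated cells, and 4 rose and 0 fell in controls, where 9.68% of all probe sets were called in treated cells and 8.15% in controls. Those called higher in both were Id2 (0.90 in treated cells and 0.60 in controls), the BMP co-receptor gene Rgmb (0.56 and 0.52), Smad4, the partner shared by all receptor-activated Smads (0.38 and 0.29), and Smad1 (0.31 and 0.32). Of the iron handling genes, 2 of 23 rose and 3 fell in treated cells, and 1 rose and 2 fell in controls. Those called in both were Furin, a protease that cleaves prohepcidin (0.33 in treated cells and 0.30 in controls), Epas1, which encodes the hypoxia factor HIF-2α (-0.45 and -0.45), and the iron importer gene Slc11a2 (-0.38 and -0.38). In the interleukin 6 and Stat3 arm, 1 of 14 genes rose in treated cells (Cebpa, 0.42) and 0 were called in controls. The counts of the iron handling and interleukin 6 lists stand against the same 9.68% and 8.15%, and nothing particular to a list is read from them.

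The genes whose centred profile over the 12 arrays lay nearest to that of Hamp, among 13982 genes, were Gpd1l1, Slc25a44, Actn1, Slc5a3 and Gpd2, at root mean square distances of 0.13, 0.17, 0.17, 0.20 and 0.21. The median distance over all genes was 0.66, and the root mean square deviation of Hamp itself was 0.64. Nearest to Id1 were Plekha4, Ppard, Lenep, Slc39a14 and Arrdc3, at 0.14, 0.14, 0.16, 0.17 and 0.17, with a median of 0.42. All profiles share the same 12 arrays and replicate numbers, and likeness was used as a description alone.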

How the data were processed

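Each deposited column holds log2 expression of 1 array. The submitters' processing notes name RMA, affy and R 2.10.0. RMA gives all arrays the same intensity distribution, which hides a change common to most transcripts. Which probe set definition was used is not given. Per the labels' protocols, cRNA was made from 5 ug total RNA. Depth does not apply to arrays, and 3 arrays per group limit the precision.

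The 57 control probe sets were left out. Groups and replicate numbers came from the titles. Comparisons used limma 3.58.1 under R 4.3.3 (moderated statistics, 12 arrays, 4 group means, 8 residual degrees of freedom, two-sided p-values), adjusted by Benjamini-Hochberg over 31042 probe sets and called under 0.05. The scripts were tested on simulated data. The members and lists were chosen with earlier results of these data known. The change between times in treated cells, the test between replicate numbers and the motif search were added after the data were seen.

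Probe sets were named from the platform annotation, which can be old, and a gene outside the 10 is represented by its brightest probe set. From each list, up to 4 genes called after treatment were named, or, where 0 were called, the 2 brightest, and for Hamp and Id1 the 5 genes of nearest profile. Other names were chosen after their values were seen.

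Deviations from the group means correlated at 0.651 to 0.829 between arrays of the same replicate number and time (6 pairs), at 0.479 to 0.736 at different times (12 pairs) and at -0.562 to -0.0747 between different numbers (36 pairs). The numbers were therefore taken to pair the arrays. Alternatives were the replicate block, the block within each time, an intensity trend, robust empirical Bayes, median centring, a filter on dim probe sets, fits to the arrays compared alone, and leaving out single arrays.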

Additional observations from a re-analysis of the deposited data

How the results depend on the processing

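Over all alternatives, 0 of the 1772 values of members in comparisons with interferon alpha were called (lowest adjusted p 0.103), and of 2638 member values 2617 kept their side of the threshold, 16 lost a call, 5 gained one and 0 reversed, though 278 values that were not called changed sign. The number of probe sets called moved more, and the cause was not tested. At 6 h, 120 were called, 340 with the replicate block, 341 with it fitted per time and 69 with the arrays of 6 h alone, and leaving out 1 array gave 56 to 124 and the block without 1 replicate number 100 to 291. At 3 h, 2 were called, 30 with the block and 10 with it fitted per time, 1 with an intensity trend, median centring or the dim probe sets left out, 0 with robust empirical Bayes or the arrays of 3 h alone, and 0 to 23 without 1 array (block without 1 replicate number 0 to 112). Averaged over both times, 135 were called, 341 with the block, 399 with it fitted per time, 103 to 156 without 1 array and 111 to 330 with the block without 1 replicate number. The difference of effects gave 0, also without 1 array, and 0 to 18 with the block without 1 replicate number. Between times, controls gave 59, 2529 with the block, 8 with the trend, 2 with the control arrays alone, 2 to 16 without 1 array and 660, 581 and 497 with the block without replicate number 1, 2 or 3, and 1, 2, 0, 0, 0 to 1 and 1 to 2 of these were members. Treated cells gave 120, 3005 with the block, 35 with the trend, 1 with the treated arrays alone, 2 to 71 without 1 array and 1609, 711 and 699 with the block without replicate number 1, 2 or 3, and 1, 3, 1, 0, 0 to 1 and 1 to 2 of these were members. The replicate block changed no call of a member other than those of Hamp and Id1 between times. Fits to the arrays compared alone give no averaged value or difference of effects, and the block within each time gives no change between times.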
